A study of Mus musculus with 9 samples.

Results

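The Kelch-like (Klhl) and Kbtbd genes were described in the tibialis anterior of male C57BL/6J mice, a muscle at the front of the lower leg made mainly of fast fibres. Members were all genes of the deposited tables whose symbol is Klhl or Kbtbd followed by a number. There were 40 of them, 32 Klhl and 8 Kbtbd genes, among 14300 genes listed in both tables. The study compared 3 groups of 3 libraries, all sampled 4 weeks after treatment: control mice (called sham in the tables), mice whose testes had been removed by orchiectomy (ORX), and mice that had the same operation and then received the androgen dihydrotestosterone (ORX+DHT). All 9 libraries came from the same strain and sex, and the dose of the androgen and the age of the mice are not given in the sources used here. The labels call the samples biological replicates. Of the 40 members, 9 were set apart as muscle-enriched, from general knowledge of where they are expressed: Klhl30, Klhl31, Klhl33, Klhl34, Klhl38, Klhl40, Klhl41, Kbtbd12 and Kbtbd13. This list was chosen with earlier results of these data known.

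Most proteins of this family carry a BTB domain, which binds the scaffold protein cullin 3 (CUL3), and a set of Kelch repeats, which bind a substrate. Together they form ubiquitin ligases in which the Kelch protein chooses what is tagged. In skeletal muscle several members sit on the thin filament or at the edges of the sarcomere, and inherited loss of KLHL40 or KLHL41, or mutation of KBTBD13, causes nemaline myopathy, a muscle disease with rod-like protein deposits. KLHL40 is unusual in that it is known to protect its partners nebulin and leiomodin 3 rather than to mark them for breakdown.

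Promoter windows of the 2 members that passed the test with the androgen, Klhl33 and Klhl40, are shown beside that of Klhl41, the member with the highest level, which did not pass. Each is the 250 bases before a RefSeq transcription start on GRCm38.p6, read 5′ to 3′ on the strand of the gene. Klhl33 is at chr14:50897484-50897733 (minus strand), Klhl40 at chr9:121777357-121777606 (plus strand) and Klhl41 at chr2:69669870-69670119 (plus strand). Capitals mark letters that match the E-box CAGCTG, bound by muscle regulatory factors, or the MEF2 element, searched on both strands.
Klhl33: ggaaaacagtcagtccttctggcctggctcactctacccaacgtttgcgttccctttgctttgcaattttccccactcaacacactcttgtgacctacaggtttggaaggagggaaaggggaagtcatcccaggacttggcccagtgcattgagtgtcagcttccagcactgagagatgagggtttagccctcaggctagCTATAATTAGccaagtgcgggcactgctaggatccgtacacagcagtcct
Klhl40: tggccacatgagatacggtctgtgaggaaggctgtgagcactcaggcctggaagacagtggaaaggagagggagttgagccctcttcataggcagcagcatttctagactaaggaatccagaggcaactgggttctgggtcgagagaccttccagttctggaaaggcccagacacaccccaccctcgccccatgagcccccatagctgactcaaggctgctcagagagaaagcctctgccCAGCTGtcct
Klhl41: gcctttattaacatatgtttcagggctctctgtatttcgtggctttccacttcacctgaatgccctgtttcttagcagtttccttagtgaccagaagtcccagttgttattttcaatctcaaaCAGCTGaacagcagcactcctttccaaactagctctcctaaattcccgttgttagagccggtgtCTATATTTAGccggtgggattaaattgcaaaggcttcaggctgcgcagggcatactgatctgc
RefSeq starts were found for 34 of the 40 members and for 7 of the 9 muscle-enriched ones, which had 8 windows. The MEF2 element matched in 3 of these 8 windows (37.5%; Klhl33, Klhl41 and Kbtbd12), in 0 of 38 windows of the other members and in 2.92% of 32851 windows of all genes. CAGCTG matched in 3 of 8 windows (Klhl34, Klhl40 and Klhl41), in 15.8% of the windows of the other members and in 13.0% of all windows. The palindromic androgen response element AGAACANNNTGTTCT, searched like the others on both strands, matched in 0 of 46 member windows and in 0.00913% of all. Its single arm AGAACA, which the longer element contains, matched in 0 of the 8 muscle-enriched windows, in 23.7% of the windows of the other members and in 16.1% of all. A second RefSeq start of Klhl33, with the window chr14:50895353-50895602, held none of these letters. These matches are a description of the letters, not of binding.

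Each library held 1340209 to 1682235 recovered reads. The tissue label was checked against 8 genes of fast and general muscle fibre, whose summed level was 193098 to 265745 normalised counts in the 9 libraries, against 82.0 to 268 for 6 slow-fibre genes. Control replicate 1 stood apart on the first principal component (score -47.2, the other 8 libraries 0.716 to 10.6). Among the 27 members tested in all 3 comparisons it was the highest or lowest of the 9 libraries for 16 (59.3%), against 52.5% of all 8416 such genes. Control replicate 3 was the highest or lowest for 10 of the 27 (37.0%), against 15.1% of all such genes. Members whose call changed without control replicate 1 are given with and without that library.

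Family members covered a wide range of levels. By the mean per kilobase over the 9 libraries it was led by Klhl41, Klhl31, Klhl30 and Klhl33, all muscle-enriched. Normalised counts, which are read counts divided by a scaling factor of the library, are compared between genes per kilobase of annotated exon (GENCODE M21). Klhl41, a sarcomere-associated protein that stabilises nebulin, stood highest at 420, 441 and 448 normalised counts per kilobase in control, ORX and ORX+DHT muscle. Klhl31, a muscle protein known to act on filamin C, followed at 110, 116 and 95.5, and Klhl30 at 93.1, 80.0 and 75.1. Klhl33 stood at 72.9, 105 and 48.2 per kilobase, so that its place in this order was not the same in each group. Klhl40 stood at 74.4, 72.7 and 53.1.

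Of the other members, the highest per kilobase were Klhl21 (67.0, 76.6 and 82.5 in control, ORX and ORX+DHT), Klhl24 (28.7, 29.0 and 28.0) and Klhl9 (18.9, 22.0 and 24.0). In ORX+DHT muscle Klhl21 stood above every muscle-enriched member but Klhl41 and Klhl31. KLHL21 and KLHL9 are adaptors that direct CUL3 to Aurora B in dividing cells, and KLHL24 controls the turnover of intermediate filaments. Kbtbd13 (21.8, 16.7 and 17.8) and Klhl34 (18.9, 16.4 and 18.5) had means over the 9 libraries below those of these 3, and Klhl38 (4.62, 8.13 and 7.01) and Kbtbd12 (5.55, 6.06 and 6.15) lay lower still. The 9 muscle-enriched genes held 66.0% to 72.4% of the summed normalised counts of all 40 members in every library.

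**Figure D1:**
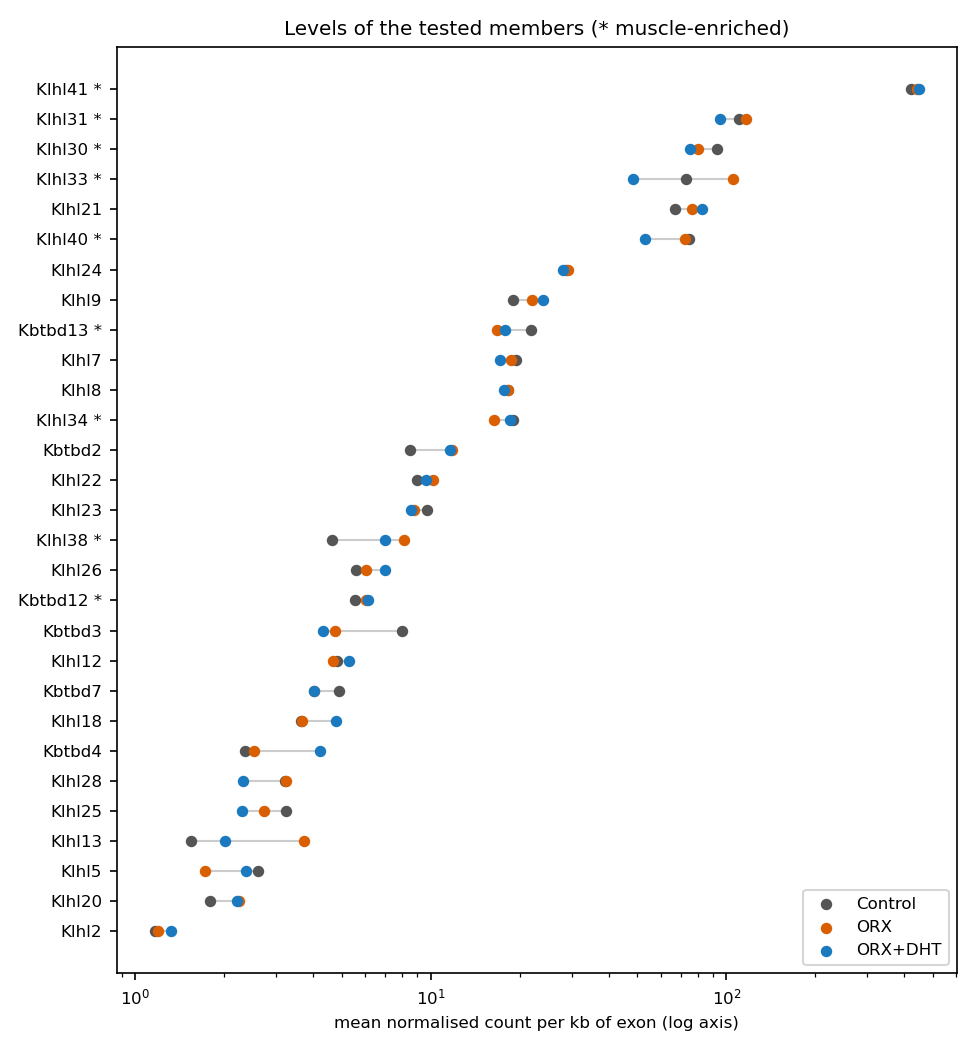
Mean normalised count per kilobase of exon (log axis) of the 29 members tested in at least 1 comparison, with 1 dot per group (n = 3 libraries each) and muscle-enriched members starred. Klhl41 is highest in all 3 groups, and Klhl33 spans 48.2 in ORX+DHT to 105 in ORX.

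A read was found in all 9 libraries for 36 members. The other 4 were Kbtbd11, Klhl10, Klhl11 and Klhl36. Klhl10, which is known from the germ cells of the testis, had 1 or 2 reads in each control library, 0, 1 and 0 in ORX and 0 in each ORX+DHT library. A count of 0 there allows up to 3 reads, or 2.90 to 3.04 normalised counts, so no difference was detectable at this depth. In all, 11 members had a mean below 10 in each comparison and were tested in none, with means over the 9 libraries from 0.577 (Klhl10) to 6.44 (Klhl15).

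The effect of giving the androgen back was examined by setting ORX+DHT against ORX. Klhl33 and Klhl40, both muscle-enriched, were called lower, and no member was called higher. Called or not, 12 tested members had a log2 fold change above 0 and 17 below. The 29 tested members thus gave 2 calls, both lower (limma with Benjamini-Hochberg adjustment over 8770 genes, adjusted p under 0.05), where 4.08% of all genes tested were called, 1.7% lower and 2.38% higher. Another 3 members had an unadjusted p under 0.05, which made 5 in all, where 14.3% of all genes had. Libraries of the groups did not overlap for 4 tested members that were lower in ORX+DHT and 2 that were higher, where 9.13% and 10.4% of all genes tested did not (19.5% in either direction). All 9 muscle-enriched members were tested and 2 of them were called, against 0 of the 20 other tested members. Of these 20, 2 had an unadjusted p under 0.05 (edgeR and DESeq2 also called 0). The other members were measured less precisely. The median width of the confidence interval of the log2 fold change was 0.48 for the muscle-enriched and 0.86 for the other tested members. Klhl13 (-0.81) and Kbtbd4 (0.69) were not called, although their log2 fold changes were larger in size than that of Klhl40 (-0.45). A difference between the sets was not tested. The median log2 fold change was -0.089 for the muscle-enriched and -0.021 for the other tested members, and 0.0062 for all genes.

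Klhl33 (ENSMUSG00000090799, GRCm38 chr14:50888582-50897507, minus strand) stood at 684, 654 and 655 normalised counts in the ORX libraries and at 301, 285 and 324 in the ORX+DHT libraries. Control libraries stood between, at 423, 479 and 476. Libraries of the 3 groups did not overlap. Group means were 459 ± 31.2 for control, 664 ± 17.1 for ORX and 303 ± 19.6 for ORX+DHT (SD, n = 3). In ORX+DHT against ORX its log2 fold change was -1.13 (SE 0.085, 95% interval -1.31 to -0.95, limma adjusted p 1.35e-07), a level 0.457 times that of ORX. It held place 13 by p among the 8770 genes tested and place 46 by size among the 149 genes called lower. All 16 alternative fits called it, with log2 fold changes from -1.20 to -1.09. Klhl33 made up 14.8% to 15.9% of the family's summed normalised counts in ORX libraries and 7.29% to 8.20% in ORX+DHT libraries.

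Klhl40 (ENSMUSG00000074001, GRCm38 chr9:121777607-121783818, plus strand), the protector of nebulin and leiomodin 3, stood at 159, 194 and 192 normalised counts in ORX and at 134, 142 and 123 in ORX+DHT libraries. These groups did not overlap. Control libraries were spread over 265, 165 and 129, with control replicate 1 the highest of all 9. The log2 fold change in ORX+DHT against ORX was -0.45 (SE 0.11, 95% interval -0.69 to -0.20, limma adjusted p 0.0343). The call was lost without ORX replicate 2 (limma adjusted p 0.173) or 3 (0.102) and without ORX+DHT replicate 1 (0.107) or 3 (0.128), while the log2 fold change stayed between -0.54 and -0.39. It was also lost with DESeq2 (adjusted p 0.130) and with all 9 libraries in 1 fit (0.558). The start of Klhl40 overlaps Gm47108 on the other strand, and the strand setting of the counting is not given in the sources used here.

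**Figure D2:**
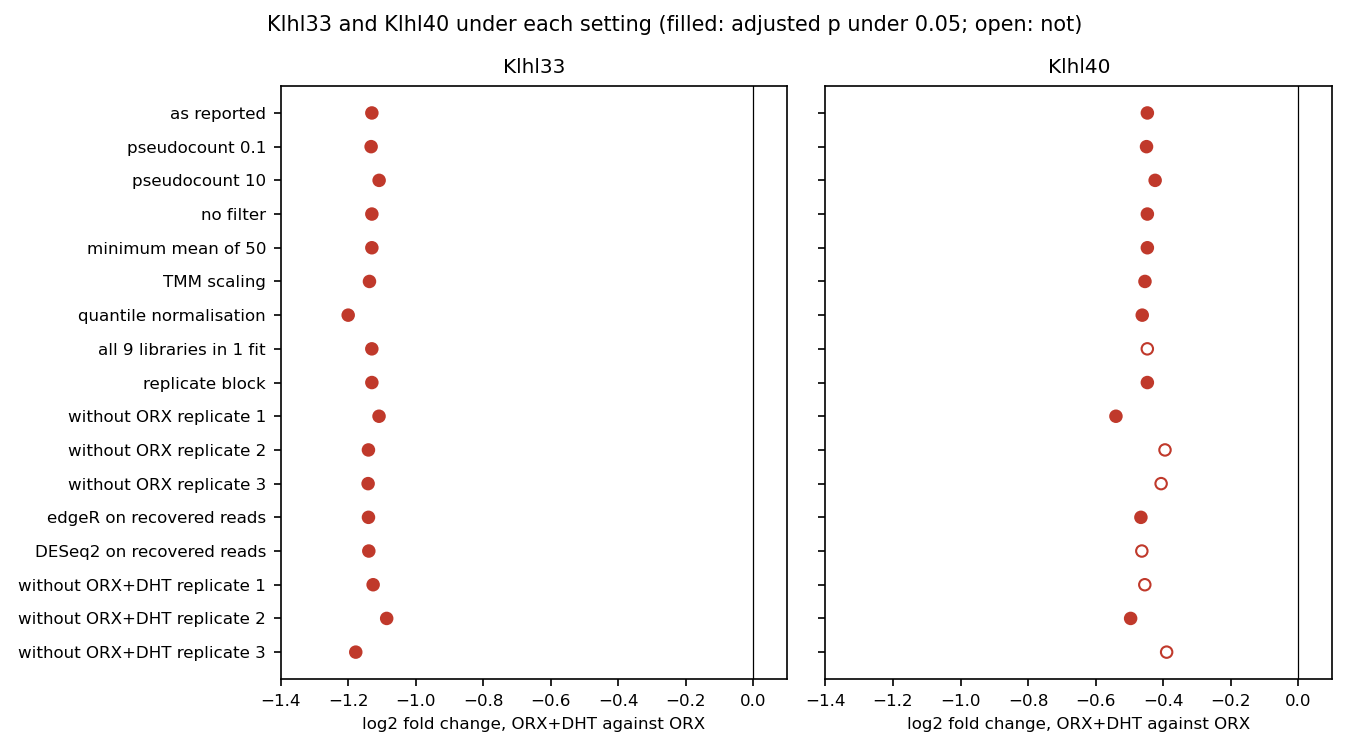
Log2 fold change of Klhl33 and Klhl40 in ORX+DHT against ORX (x axis) as reported and under 16 other settings (rows), with filled dots at an adjusted p under 0.05. All Klhl33 dots are filled and lie between -1.20 and -1.09, while 6 of the Klhl40 dots are open.

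The other 7 muscle-enriched members did not pass in this comparison. Klhl31 stood at 721, 771 and 776 normalised counts in ORX and 526, 717 and 617 in ORX+DHT libraries, which did not overlap, with 732, 714 and 699 in control. Its log2 fold change was -0.30 (95% interval -0.51 to -0.087, limma adjusted p 0.126). It passed without ORX+DHT replicate 2 (limma adjusted p 0.0304), the ORX+DHT library nearest the ORX ones. Without ORX+DHT replicate 1, the ORX+DHT library furthest from them, the limma adjusted p was 0.484. Klhl41 lay within a narrow range, at 981, 1126 and 1083 in control, 1071, 1117 and 1158 in ORX, and 1142, 1092 and 1161 in ORX+DHT libraries. Its log2 fold change was 0.022, with a 95% interval of -0.14 to 0.18 that overlapped neither that of Klhl33 nor that of Klhl40. Differences between genes were not tested. Klhl30 stood at 331, 283 and 249 in control, 259, 267 and 215 in ORX, and 212, 260 and 224 in ORX+DHT libraries, with a log2 fold change of -0.089 (95% interval -0.32 to 0.14).

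The 4 lower members were measured less precisely. Kbtbd13, the nemaline myopathy protein that binds the thin filament, stood at 53.7, 61.9 and 78.5 normalised counts in control, 48.1, 53.7 and 47.1 in ORX, and 50.7, 62.8 and 45.5 in ORX+DHT libraries. Klhl34 stood at 27.5, 37.6 and 44.7, at 29.4, 33.3 and 32.3, and at 36.5, 42.5 and 28.7 in the same order of groups. In neither gene did the ORX+DHT libraries stand clear of the ORX ones. Klhl38 stood at 11.2, 5.53 and 13.9 in control, 24.5, 16.2 and 13.2 in ORX, and 16.2, 14.5 and 15.8 in ORX+DHT libraries, and an antisense gene, Gm15943, lies across it. Kbtbd12 stood at 40.0, 68.6 and 47.7, at 67.7, 58.8 and 43.8, and at 50.7, 53.2 and 69.2. In ORX+DHT against ORX the log2 fold changes of Kbtbd13, Klhl34, Klhl38 and Kbtbd12 were 0.082, 0.16, -0.16 and 0.030. Their 95% intervals were -0.27 to 0.43, -0.25 to 0.58, -0.74 to 0.42 and -0.35 to 0.41. All of these overlapped the interval of Klhl40 (-0.69 to -0.20), and differences between genes were not tested.

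**Figure D3:**
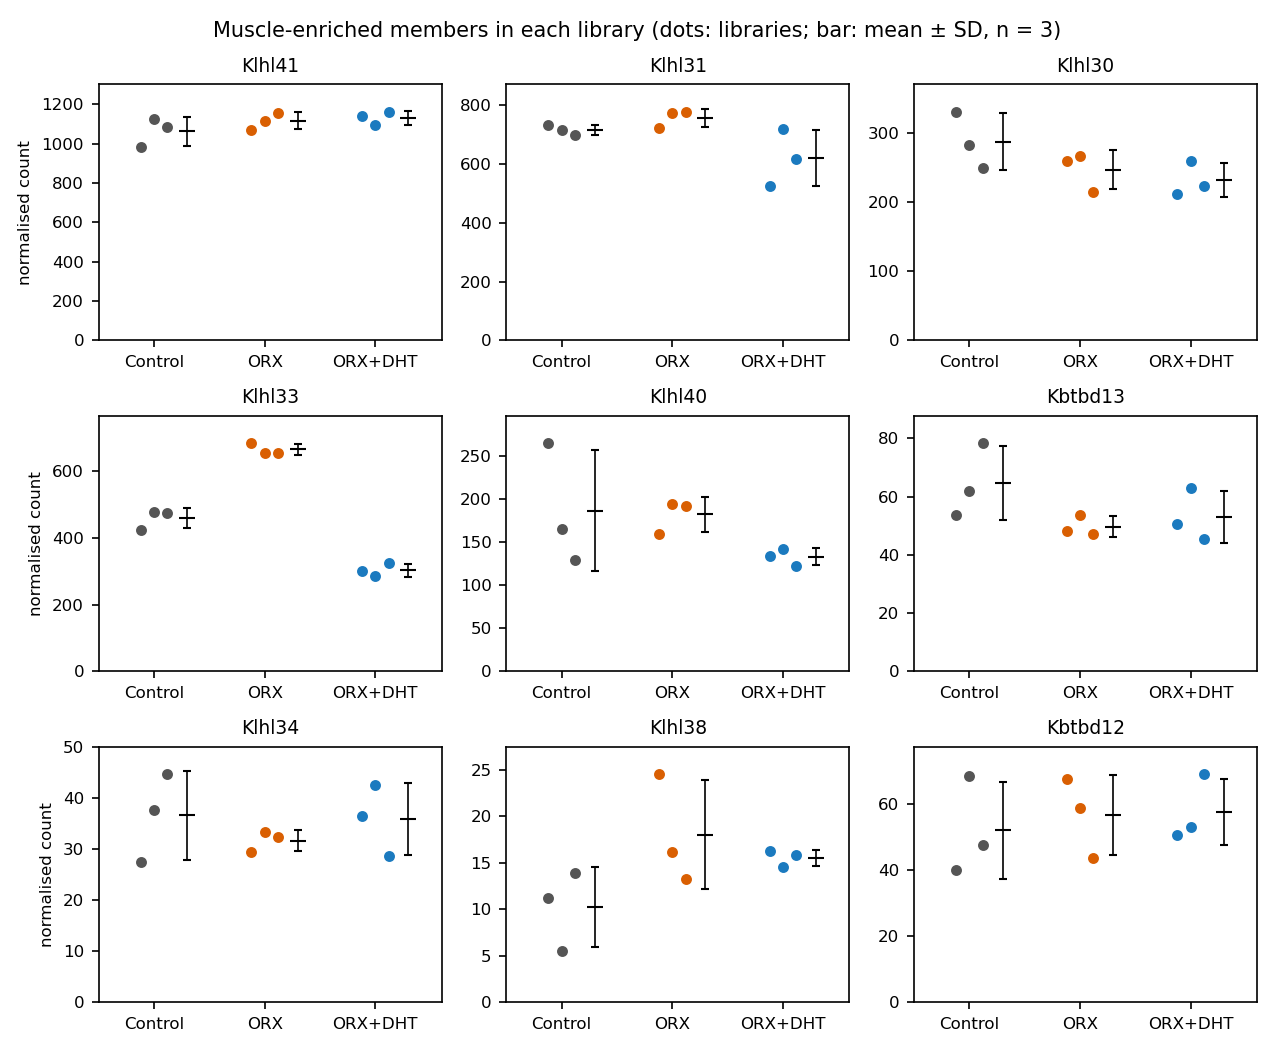
Normalised count (y axis, from 0, scale set per gene) of the 9 muscle-enriched members in each library, with 1 dot per library and the mean ± SD (n = 3) beside it. Klhl33 shows 3 separate groups, with ORX highest and ORX+DHT lowest, and Klhl41 lies between 981 and 1161 in all 9 libraries.

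Among the 20 other tested members, the largest log2 fold changes in ORX+DHT against ORX were those of Klhl13 (-0.81), Kbtbd4 (0.69) and Kbtbd3 (-0.55), and none passed (limma adjusted p 0.227, 0.349 and 0.759). Klhl13, a close relative of Klhl9 with the same Aurora B role, stood at 20.6, 15.4 and 11.6 normalised counts in ORX and 7.09, 7.73 and 10.9 in ORX+DHT libraries, which did not overlap, and at 6.24, 5.53 and 7.95 in control. A transcribed pseudogene, Gm14523, overlaps Klhl13 on the same strand, so its counts are uncertain. Kbtbd4 stood at 6.87, 10.2 and 6.62 in ORX and 15.2, 10.6 and 13.8 in ORX+DHT libraries, and it overlaps Ndufs3 and Ptpmt1 on the other strand. Kbtbd3 rested on 1 library: ORX+DHT replicate 1 stood at 1.01, the other 2 at 18.4 and 10.9, and without it the log2 fold change was 0.44. Klhl21, Klhl24 and Klhl9, the highest of this set, had differences of 0.10, -0.047 and 0.13 on the log2 scale, none of which passed (limma adjusted p 0.746, 0.884 and 0.728). Gm9768 overlaps Klhl21, and Gm26566 overlaps Klhl9, each on the other strand.

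**Figure D4:**
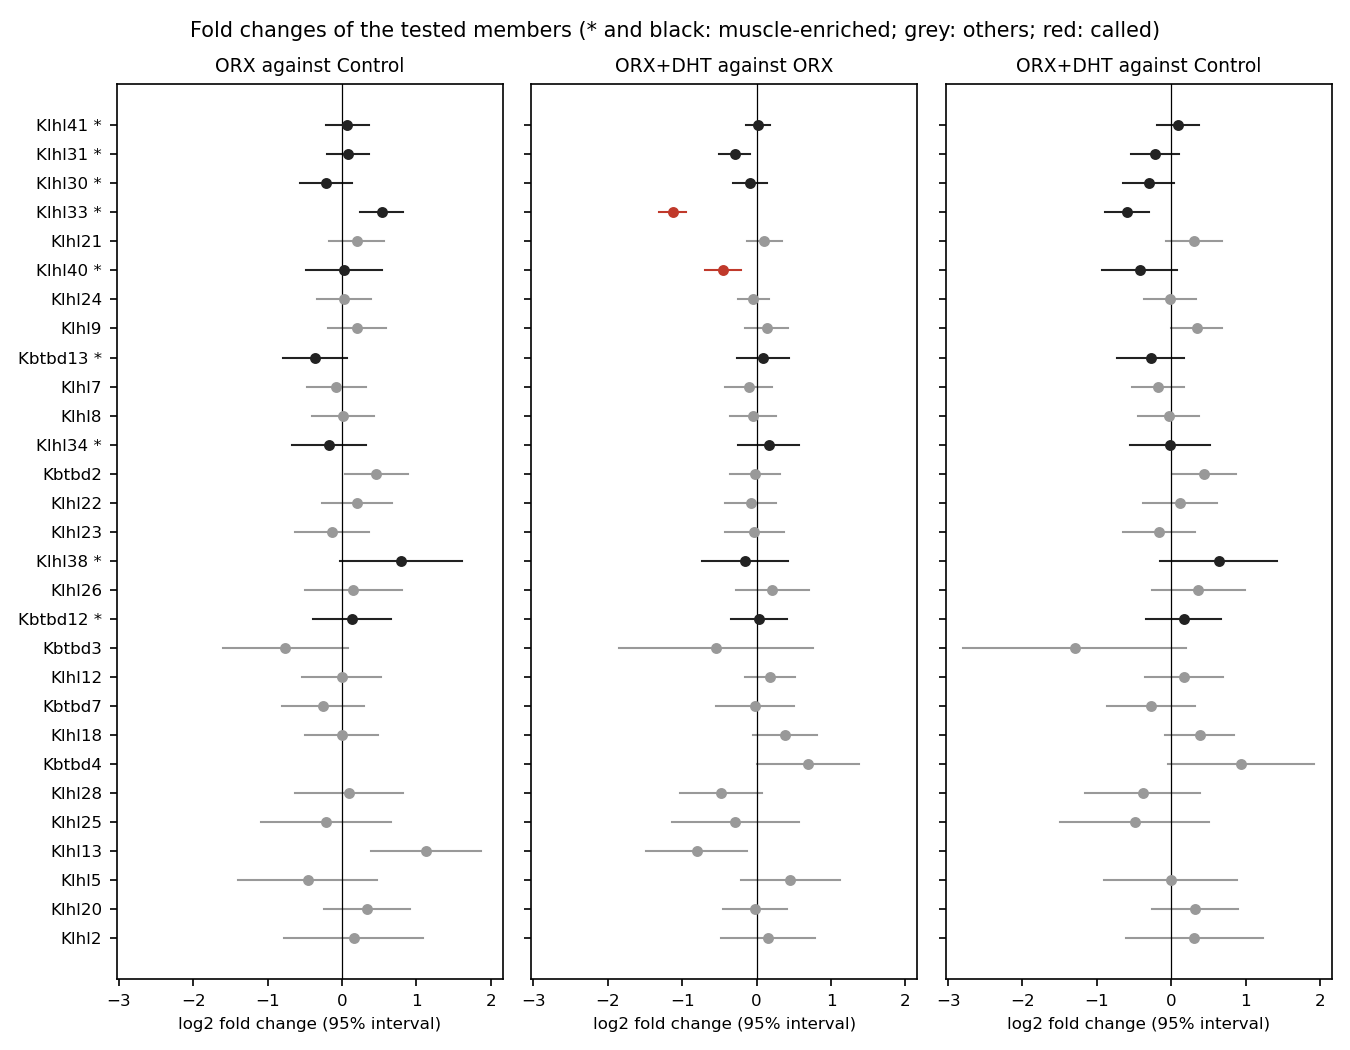
Log2 fold change (x axis, dots) and its 95% interval (lines) of the tested members in the 3 comparisons, with starred names and black marks for muscle-enriched members, grey for the others and red for called genes. Klhl33 and Klhl40 are the red marks, both in ORX+DHT against ORX.

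The effect of removing the testes was examined by setting ORX against control, within the table that holds both. Klhl33 was higher in ORX, with a log2 fold change of 0.53 (SE 0.13, 95% interval 0.24 to 0.82) and no overlap of libraries, but it did not pass over all 8631 genes (unadjusted p 0.00179, limma adjusted p 0.329). Without control replicate 1, which stood apart, it passed (log2 fold change 0.48, limma adjusted p 0.0258), in a fit that called 51 genes in place of 5. This was the only 1 of 16 alternative fits to call Klhl33, and without ORX replicate 1 its limma adjusted p was 0.987. Of the 28 members tested, 0 were called, where 0.0579% of all genes were, 3 had an unadjusted p under 0.05 (7.21% of all genes), and edgeR and DESeq2 also called 0. Control and ORX libraries did not overlap for 4 of the tested members, 3 higher and 1 lower in ORX, where 14.3% of all genes tested did not (6.28% higher and 8.06% lower). The other 3 were Klhl13 (log2 fold change 1.13, limma adjusted p 0.531), Kbtbd13 (-0.36, 0.706) and Kbtbd2 (0.46, 0.675), an adaptor of insulin signalling named here after its values were seen. Kbtbd2 stood at 29.97, 36.5 and 37.7 normalised counts in control, 49.1, 46.1 and 48.8 in ORX and 51.7, 42.5 and 48.4 in ORX+DHT libraries, so that both orchiectomised groups lay above control.

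The remaining muscle-enriched members had log2 fold changes in ORX against control of 0.80 (Klhl38), 0.14 (Kbtbd12), 0.079 (Klhl31), 0.070 (Klhl41), 0.024 (Klhl40), -0.18 (Klhl34) and -0.22 (Klhl30). The 95% interval of Klhl40 ran from -0.49 to 0.53, and its log2 fold change ranged from -0.21 to 0.31 when single libraries were left out. Among the other members, Kbtbd3 (-0.76) and Klhl5 (-0.46) followed Klhl13 in size (limma adjusted p 0.695 and 0.818). The value of Klhl5 was -0.14 without control replicate 1, -0.30 without control replicate 2, -0.95 without control replicate 3 and -0.19 without ORX replicate 2. The median log2 fold change was 0.070 over the 9 muscle-enriched members, 0.027 over the 19 other members tested and -0.0077 over all genes.

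ORX+DHT was compared with control after all 9 libraries were rescaled together. Klhl33 was lower in ORX+DHT, with a log2 fold change of -0.60 (SE 0.13, 95% interval -0.89 to -0.30) and no overlap of libraries, and did not pass (unadjusted p 0.000903, limma adjusted p 0.379). Without control replicate 1 it passed (log2 fold change -0.65, limma adjusted p 0.00204), in a fit that called 66 genes in place of 3. Here too this was the only 1 of 16 alternative fits to call Klhl33, and without ORX+DHT replicate 1 its limma adjusted p was 0.977. Both comparisons with control share the control libraries, and both comparisons with ORX share the ORX libraries. Of the 28 members tested, 0 were called by limma, edgeR or DESeq2, where limma called 0.0349% of all 8595 genes, and 2 members, Klhl33 and Kbtbd2, had an unadjusted p under 0.05 (6.48% of all genes). The log2 fold change of Kbtbd2 was 0.44 (limma adjusted p 0.736). Libraries did not overlap for 6 of the tested members, where 14.0% of all genes tested did not (6.86% higher and 7.12% lower). Of these members, 4 were higher (Kbtbd2, Klhl9, Klhl18 and Klhl38) and 2 lower (Klhl33 and Klhl7) in ORX+DHT. Klhl18 and Klhl7 are named after their values were seen. Kbtbd3, Kbtbd4 and Klhl25, the last an adaptor for the translation repressor 4E-BP1, had the largest log2 fold changes of the other members (-1.30, 0.94 and -0.49, limma adjusted p 0.736, 0.736 and 0.811). Kbtbd3 was at -0.33 and Klhl25 at -0.068 without ORX+DHT replicate 1, the lowest of the 9 libraries for both genes. Without ORX+DHT replicate 2 Kbtbd3 was at -1.96, and without control replicate 3 Klhl25 was at -0.84. Those of the muscle-enriched members besides Klhl33 were 0.64 (Klhl38), 0.17 (Kbtbd12), 0.092 (Klhl41), -0.018 (Klhl34), -0.22 (Klhl31), -0.28 (Kbtbd13), -0.30 (Klhl30) and -0.42 (Klhl40), with the lowest limma adjusted p at 0.736. Klhl40 was at -0.14 without control replicate 1 and -0.65 without control replicate 3, and Klhl38 at 0.29 without control replicate 2.

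Partners of the family were taken from a list of 52 genes, of which 49 were tested. In ORX+DHT against ORX limma called 5 of them higher and 0 lower, where 2.38% of all genes were called higher and 1.7% lower. An unadjusted p under 0.05 was found for 9 of the 49, where 14.3% of all genes had one. Called or not, 34 of the 49 had a log2 fold change above 0 and 15 below. Over all 8770 genes, 4459 lay above 0 and 4311 below. The ligase core and its neddylation machinery, which switches cullins on, gave 1 call among 24 genes, the other Kelch proteins outside the symbol rule 0 of 4 tested, and known partners and substrates 4 of 21. Cul3 itself stood at 583 ± 81.9 (control), 565 ± 52.7 (ORX) and 619 ± 33.8 (ORX+DHT) normalised counts (SD, n = 3), and its log2 fold change of 0.14 did not pass (limma adjusted p 0.531). Keap1, the Kelch protein that senses oxidative stress, had a log2 fold change of -0.025 and did not pass (limma adjusted p 0.959).

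Lmod3, the thin filament protein leiomodin 3 that Klhl40 protects, stood at 272, 260 and 239 normalised counts in ORX and 404, 387 and 331 in ORX+DHT libraries, with 479, 370 and 351 in control. ORX libraries lay below both other groups for Lmod3. Over all genes tested, 8.06% lay lower in ORX than in control without overlap, and 10.4% higher in ORX+DHT than in ORX. For Klhl40 itself the ORX libraries lay above the ORX+DHT ones but overlapped the control ones (265, 165 and 129). The log2 fold change of Lmod3 in ORX+DHT against ORX was 0.54 (SE 0.0995, limma adjusted p 0.00301, and 0.0926 with all 9 libraries in 1 fit). In ORX against control it was -0.63 (limma adjusted p 0.333). Nebulin (Neb), the other partner Klhl40 protects, had a log2 fold change of 0.16 in ORX+DHT against ORX and did not pass (limma adjusted p 0.341).

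Eif4ebp1, for the translation repressor that Klhl25 marks for breakdown, stood at 30.4, 40.9 and 55.4 in ORX and 82.1, 65.7 and 79.0 in ORX+DHT libraries, higher by 0.86 on the log2 scale (limma adjusted p 0.0129; 0.0557 without ORX replicate 1, 0.0568 with all 9 libraries in 1 fit and 0.0839 without ORX+DHT replicate 1). Cand2, a cullin exchange factor found mainly in muscle, stood at 232, 261 and 225 in ORX and 349, 321 and 305 in ORX+DHT libraries, higher by 0.44 on the log2 scale (limma adjusted p 0.0119; 0.0935 without ORX+DHT replicate 1 and 0.362 with all 9 libraries in 1 fit), and DESeq2 did not call it (adjusted p 0.0510). Its end overlaps Rpl32 on the other strand. Flnc, for filamin C, the partner of Klhl31, stood at 1694, 1770 and 953 in ORX and 2803, 2702 and 1836 in ORX+DHT libraries, higher by 0.76 on the log2 scale (limma adjusted p 0.0220). Flnc did not pass without ORX+DHT replicate 1 or 2 (limma adjusted p 0.147 and 0.116), with all 9 libraries in 1 fit, with quantile normalisation or with DESeq2, and without ORX replicate 3 its value was 0.47 (limma adjusted p 0.0415). Des, for the intermediate filament desmin, rose least of the 5, by 0.28 on the log2 scale (limma adjusted p 0.0415), and with quantile normalisation that value was 0.093 (limma adjusted p 0.531). An antisense gene, Gm15179, overlaps its end. Des lost its call in 11 of 16 alternative fits, among them 5 of the 6 that left out a library. In the 2 comparisons with control 0 list genes were called by limma, edgeR or DESeq2, with 4 of 49 (ORX) and 2 of 49 (ORX+DHT) at an unadjusted p under 0.05, where 7.21% and 6.48% of all genes were.

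**Figure D5:**
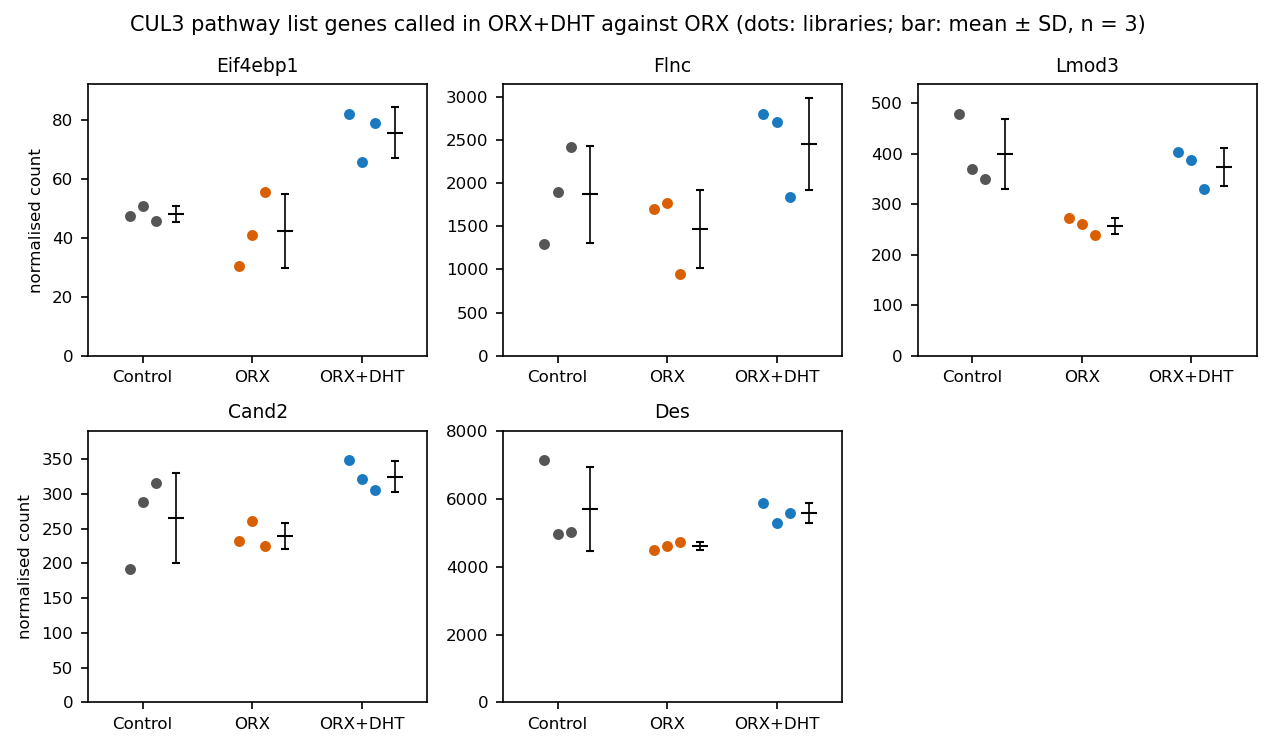
Normalised count (y axis, from 0, scale set per gene) of the 5 genes of the partner list that were called in ORX+DHT against ORX, all higher, with 1 dot per library and the mean ± SD (n = 3). ORX+DHT lies above ORX without overlap in each, and Lmod3 and Des in ORX also lie below control without overlap.

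Markers of other cells moved between the same groups. In bulk muscle, fewer cells of a type and less RNA per cell cannot be told apart. The summed level of 5 fibroblast genes was 2876 to 3841 normalised counts in ORX libraries and 1700 to 2388 in ORX+DHT libraries (1352 to 2729 in control). Of the 5, 2 were called lower in ORX+DHT against ORX, Col1a1 and Lum. Of the 8 fibre genes, 3 were called higher (Acta1, Mb and Myh1) and 5 did not pass, and the median log2 fold change over the 8 was -0.0087. Their sums, which the most abundant genes weigh on most, were 193098 to 207763 for ORX, 211039 to 228591 for ORX+DHT and 235649 to 265745 for control libraries. Slow-fibre genes summed to 167 to 219 and, with the androgen, 82.0 to 128, with 2 of 6 tested and Myl3 lower. Tendon genes summed to 458 to 766 and 307 to 385, with 4 of 5 tested and Fmod lower. Endothelial, macrophage and Schwann cell genes gave 0 calls in limma, with 5, 3 and 3 genes tested. Their sums were 635 to 787 and 759 to 883, 29.9 to 56.0 and 42.5 to 51.4, and 148 to 174 and 99.3 to 145. Satellite cell genes summed to 39.2 to 52.0 and 25.3 to 39.6, with 0 calls, but only 1 of the 4 was tested. Adipocyte genes summed to 10.2 to 23.2 and 6.08 to 27.7, and 3 B and T cell genes to 0 to 3.41 and 0, and none of these had a level that allowed a test. The part of these shifts in the falls of Klhl33 and Klhl40 was not tested.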

How the data were processed

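Polyadenylated RNA of 9 muscles was sequenced with a kit that keeps the strand, per the labels' protocols. Trim Galore 0.6.7, HISAT2 2.2.1, featureCounts 2.0.1, DESeq2 1.36.0 and the build GRCm38 are named in the submitters' processing notes, and the annotation and strand setting of the counting are not given in the sources used here. The authors deposited 2 tables of normalised counts of protein-coding genes, a signal made by dividing each library's reads by its own factor, 1 of control and ORX and 1 of ORX and ORX+DHT. Every value was a whole multiple of its column's value of 1 read (100% within 1e-06), so reads were recovered by division. For control replicate 3 that step was close to 1. ORX columns of both tables gave identical reads. Columns called sham were taken as control by replicate number, and 0 columns were left unmapped.

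The first 2 comparisons were fitted in their own table, and ORX+DHT against control after joining 14300 genes and median-of-ratios rescaling. Printed levels are on this joint scale. The test was limma 3.58.1 in R 4.3.3 on log2(value + 1), its prior variance following the mean. Genes needed a mean of at least 10 over the libraries compared, and p-values were Benjamini-Hochberg adjusted over all genes tested and called under 0.05. Fold changes on this scale understate those of low genes. Count tests on recovered reads, edgeR 4.0.16 and DESeq2 1.42.0, were alternatives and called 6 and 28 genes in ORX against control, 366 and 224 between the ORX groups, and 4 and 13 in the last comparison. Other alternatives were 2 pseudocounts (0.1 and 10), no filter or a minimum mean of 50, TMM and quantile scaling, all 9 libraries in 1 fit, a replicate block, and each library left out. On simulated 2-fold changes in 200 genes, limma recovered 65.0%, 88.5% and 69.0% among 8618, 8766 and 8432 genes. Of its calls there, 7.14%, 2.75% and 6.76% were false. Genes were drawn independently of each other, so no simulated library could stand apart as control replicate 1 did. Recovery and false calls with such a library were not measured. The changed genes were drawn above a higher minimum mean than the 10 of the test, so recovery of the lowest tested genes was not measured. Limits on a count of 0 hold for counting error alone, because PCR copies were not told apart by molecular identifiers. P-values measure the spread between these samples. Genes named were called members, muscle-enriched members, the 3 highest and 3 most changed others per comparison, and called partner genes. Members and lists were chosen with earlier results of these data known.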

Additional observations from a re-analysis of the deposited data

How the results depend on the processing

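The number of members called was 0 in both comparisons with control under all alternatives that kept every library, and 0 to 1 when single libraries were left out, with Klhl33 called in both without control replicate 1. In ORX+DHT against ORX the 2 calls became 1 (Klhl33) with all 9 libraries in 1 fit and 1 with DESeq2, and ranged from 1 to 3 over the 6 fits that left out a library. The 5 partner genes called there became 3 with quantile normalisation, 0 with all 9 libraries in 1 fit and 2 with DESeq2, and 1 to 5 with a library left out. In the comparisons with control 0 were called throughout. The cause was not tested. Over all genes, calls in ORX against control went from 5 to 16 without a filter, 23 with all 9 libraries and 28 with DESeq2 (1 to 51 with a library left out), in ORX+DHT against ORX from 358 to 123 and 224 with the last 2 of these (223 to 350), and in ORX+DHT against control from 3 to 6 with quantile normalisation, 11 and 13 (0 to 66).

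With the replicate number as a block, 3 members were called in ORX+DHT against ORX, Klhl31 (limma adjusted p 0.0124) besides Klhl33 and Klhl40, 571 genes in place of 358, and 0 members in the other comparisons. The labels do not say what a shared number means. The correlations of same-numbered deviations were 0.0627, 0.0611 and 0.151 there, not all above the 0.1 asked of a pairing, so the numbers were not used as pairs. Each library correlated best with its own number, a hint from the data and not the design. With controls the correlations were -0.165 to 0.060.

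Some uncalled log2 fold changes changed sign. Klhl40 in ORX against control was -0.012 with edgeR and -0.021 with DESeq2, and Klhl41 in ORX+DHT against ORX -0.031 with quantile normalisation. With a library left out, Klhl40 in ORX against control ranged from -0.21 to 0.31, Kbtbd12 there from -0.032 to 0.35, and in ORX+DHT against control Kbtbd12 from -0.0014 to 0.38 and Klhl34 from -0.20 to 0.14. In ORX+DHT against ORX the ranges were -0.14 to 0.17 (Kbtbd12), -0.045 to 0.18 (Kbtbd13), -0.86 to 0.44 (Kbtbd3), -0.013 to 0.19 (Klhl21), -0.12 to 0.019 (Klhl24), -0.35 to 0.076 (Klhl38) and -0.0073 to 0.048 (Klhl41). Depth limits the 11 untested members, at under 10 normalised counts.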
